A study of Thermothelomyces thermophilus with 6 samples.

Results

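The 6 genes described here encode main cellulases and beta-glucosidases of Myceliophthora thermophila (Thermothelomyces thermophilus), a thermophilic filamentous fungus that lives on plant material. They were chosen by gene ID for these enzyme classes, with earlier results of these data known, and are 6 of the 9110 genes counted. Mycth_109566 (glycoside hydrolase family GH7) and Mycth_66729 (GH6) are cellobiohydrolases, Mycth_86753 (GH5) and Mycth_111372 (GH7) are endoglucanases, and Mycth_66804 (GH3) and Mycth_115968 (GH1) are beta-glucosidases. Those assignments come with the gene list, since neither the count table nor the reference table of gene names gives a product for them.

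Cellulose is broken down by these activities acting together. Endoglucanases cut within the chain, cellobiohydrolases work along the chain from its ends and release the disaccharide cellobiose, and beta-glucosidases split cellobiose to glucose. In many filamentous fungi GH3 beta-glucosidases act mainly outside the cell, whereas in Neurospora crassa a GH1 enzyme cleaves cellobiose that has been taken up. Cellulase genes of filamentous fungi are classical targets of carbon catabolite repression, in which glucose keeps their transcription low, and of induction by breakdown products of cellulose.

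Mycelium of strain ATCC 42464 was raised on 2% glucose in Vogel's salts (18 h, 45 °C), washed, and kept for 4 h in a medium with no carbon source, with glucose or with 2% starch. The glucose concentration of that last medium is not given in the labels, and all groups share the glucose preculture. Each medium has 2 libraries, for 6 in all. The labels do not say whether these came from separate cultures, so the spread between them may be technical. The spread behind each p-value is mostly shared across all tested genes, with 42.5 prior degrees of freedom (median) against 3 residual. Only in small part is it that of a gene's own 2 libraries per medium. No library from before the transfer or from mycelium on cellulose was analysed here, so a value called higher or lower is a difference between media and not a change in time.

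Library totals ran from 17726204 to 23635336 reads. Levels are given as CPM (read counts relative to library size), scaled by trimmed mean of M-values (TMM) factors and divided by gene length in kilobases, so that genes can be compared with each other. Replicate libraries correlated at 0.998 to 0.999 across genes. Over the 18 combinations of gene and medium, the coefficient of variation between replicates ran from 0.309% to 9.83%, with a median of 1.86%. Both ends lay below the counting error expected from their reads, 3.27% and 22.6%. Some of the other combinations lay above theirs, such as Mycth_109566 on glucose (7.21% against 3.24%) and Mycth_66804 on starch (7.59% against 3.93%). Values from 2 libraries therefore measure reproducibility only loosely. All 6 genes passed the filter on low counts. Every pair of media shares its libraries with another pair, so the 3 comparisons are not independent of each other.

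On starch all 6 genes stood above their level on glucose. Of all tested genes, 36.1% were called higher there and 32.5% lower (edgeR, adjusted p under 0.05). Differences of more than 2-fold were called for 5 of the 6, against 2.09% of all tested genes called higher and 3.14% lower. Against mycelium without carbon, 5 of the 6 were higher on starch and the GH3 beta-glucosidase gene was lower. Both directions were also common over all tested genes, with 45.3% called higher and 44.7% lower. On glucose against no carbon both endoglucanase genes were higher and the other 4 genes lower, beside 44.8% and 45.7% of all tested genes.

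**Figure D1:**
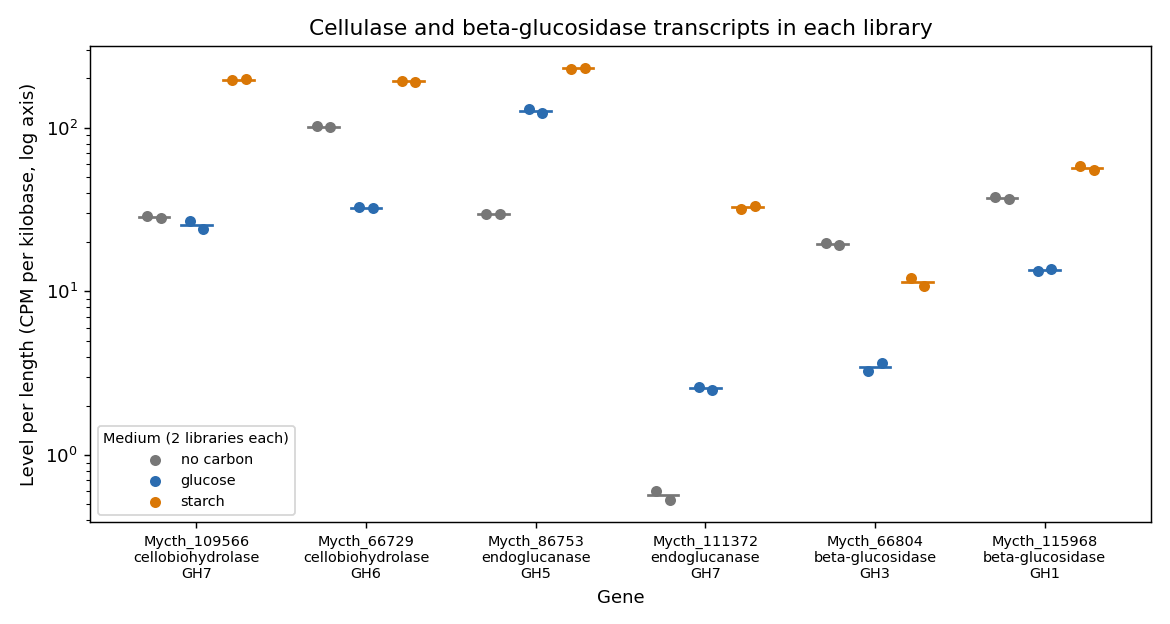
Level per length (CPM per kilobase, log axis) of each gene in each of the 6 libraries, with a line at the mean of the 2 libraries of a medium. The starch libraries are highest for 5 genes, while for the GH3 beta-glucosidase gene Mycth_66804 the libraries without carbon are highest. Mycth_111372 without carbon is lowest of all, at 0.529 and 0.608 CPM per kilobase.

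The cellobiohydrolase genes were both abundant on starch and differed in starved mycelium. Mycth_109566 (GH7, 1934 bases) had 28.9 and 28.1 CPM per kilobase without carbon, 26.8 and 24.2 with glucose, and 194.5 and 198.9 with starch. Both starch libraries lay far above the other 4, and the libraries without carbon lay slightly above those on glucose. Its mean on starch, 196.7 ± 3.11 CPM per kilobase (SD, n = 2), placed it at rank 595 of 8989 genes with a read, against rank 3696 without carbon and 4074 on glucose.

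Mycth_66729 (GH6, 1832 bases) had 102.1 and 100.9 CPM per kilobase without carbon, 32.7 and 32.1 with glucose, and 192.9 and 190.2 with starch. Starch was highest and glucose lowest. Without carbon it was the most abundant of the 6 genes, at rank 1323 of all genes, and it dropped to rank 3493 on glucose.

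The endoglucanase genes differed most in level. Mycth_86753 (GH5, 1492 bases) had 29.6 and 29.5 CPM per kilobase without carbon, 129.3 and 122.5 with glucose, and 228.7 and 232.9 with starch. Glucose lay between starved mycelium and starch. It was the most abundant of the 6 genes on glucose and on starch, at ranks 1087 and 507 of all genes.

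Mycth_111372 (GH7, 1610 bases) had few reads without carbon, with 23 and 16 in the 2 libraries, or 0.608 and 0.529 CPM per kilobase. On glucose it had 74 and 86 reads, or 2.61 and 2.51 CPM per kilobase, and on starch 1202 and 1282 reads, or 31.9 and 33.4 CPM per kilobase. The order of media was the same as for the GH5 endoglucanase gene. Its rank moved from 8630 of 8989 genes without carbon to 7611 on glucose and 3504 on starch.

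The beta-glucosidase genes were both lowest on glucose. Mycth_66804 (GH3, 2405 bases) had 19.6 and 19.2 CPM per kilobase without carbon, 3.25 and 3.63 with glucose, and 12 and 10.8 with starch. It alone among the 6 had its highest libraries in the medium without carbon. Mycth_115968 (GH1, 2100 bases) had 37.7 and 36.9 CPM per kilobase without carbon, 13.4 and 13.7 with glucose, and 58.5 and 55.3 with starch. Here starch was highest.

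Within each medium the 6 genes could be put in order with no overlap between neighbours, but several neighbours were close. Without carbon the order was Mycth_66729, Mycth_115968, Mycth_86753, Mycth_109566, Mycth_66804 and Mycth_111372, and Mycth_86753 exceeded Mycth_109566 by only 1.04-fold. On starch Mycth_86753 came first, followed by Mycth_109566, Mycth_66729, Mycth_115968, Mycth_111372 and Mycth_66804, with 1.03-fold between the cellobiohydrolase genes. On glucose Mycth_86753 stood 3.88-fold above Mycth_66729, the next in order, and Mycth_111372 came last. The order within a medium is a description and was not tested.

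The first comparison, starch against glucose, sets the polymer against its monomer, the sugar of the preculture. All 6 genes were higher on starch (edgeR quasi-likelihood test, adjusted p under 0.05), where 36.1% of the 8718 tested genes were called higher and 32.5% lower. In the test for a difference of more than 2-fold (glmTreat), 5 of the 6 were called higher, against 2.09% of all tested genes called higher and 3.14% lower. The median log2 fold change was 2.32 over the 6 genes and 0.04 over all tested genes.

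The GH7 endoglucanase gene Mycth_111372 had the widest difference of the 6, at 12.8-fold (log2 fold change 3.67, SE 0.101, adjusted p = 1.76e-33), and ranked 25 among the 8718 genes. Counting error alone gave a 95% interval of 10.9 to 15.1, wider than its model interval of 11.1 to 14.7. The GH7 cellobiohydrolase gene Mycth_109566 was 7.75-fold higher (log2 fold change 2.95, SE 0.0387, adjusted p = 4.49e-47), at rank 41. Mycth_66729, the GH6 cellobiohydrolase gene, was 5.91-fold higher (SE 0.0345 on the log2 scale, adjusted p = 1.28e-46). Both beta-glucosidase genes followed, the GH1 gene Mycth_115968 with a 4.21-fold difference (95% interval 3.91 to 4.53, adjusted p = 6.34e-35) and the GH3 gene Mycth_66804 with 3.29-fold (95% interval 2.88 to 3.77, adjusted p = 4.17e-21). The GH5 endoglucanase gene Mycth_86753 differed least, by 1.84-fold (95% interval 1.76 to 1.91, adjusted p = 2.1e-29), and was the gene that did not pass the 2-fold test.

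**Figure D2:**
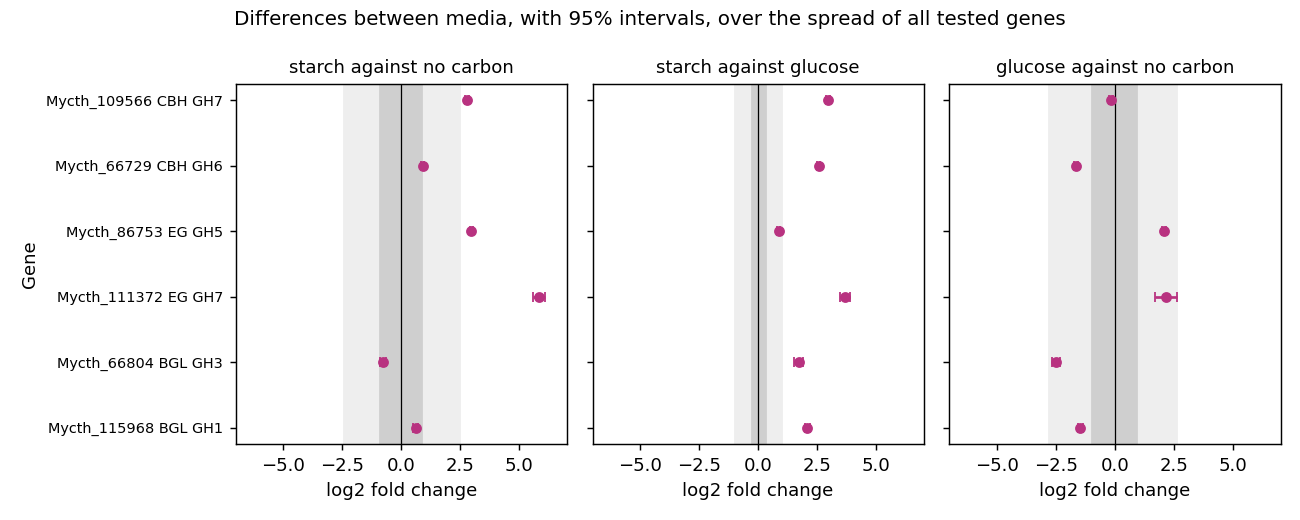
Log2 fold change of each gene in each comparison (points) with its 95% interval (bars), over bands that hold the middle 50% (dark grey) and 90% (light grey) of the 8718 tested genes. For starch against glucose 5 points lie beyond the light band on the right, whereas for glucose against no carbon the points lie on both sides of 0 and within the light band.

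The second comparison set starch against no carbon. Here 5 of the 6 genes were higher on starch and 1 was lower, with 45.3% of tested genes called higher and 44.7% lower. More than 2-fold differences were called for 3 genes, all higher, against 20.3% of all tested genes called higher and 19% called lower at that size. The median log2 fold change of the 6 was 1.85, against 0.01 over all tested genes.

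Those 3 were the GH7 cellobiohydrolase gene and both endoglucanase genes. Mycth_111372 was 56.7-fold higher on starch (log2 fold change 5.82, SE 0.133, adjusted p = 1.19e-37), a difference that ranked 5 among 8718 genes. It rests on 39 reads without carbon, and the scaled read ratio of 57.0 had a 95% counting interval of 41.6 to 80.4. The model interval of 47.1 to 68.2 was narrower, so the SE and adjusted p of this gene understate its uncertainty. Mycth_86753 was 7.80-fold higher (log2 fold change 2.96, SE 0.0372, adjusted p = 1.82e-48) and Mycth_109566 6.90-fold higher (log2 fold change 2.79, SE 0.0374, adjusted p = 3e-47).

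The other differences from starvation were smaller. Mycth_66729 was 1.89-fold higher on starch (95% interval 1.81 to 1.96, adjusted p = 8.37e-32) and Mycth_115968 was 1.52-fold higher (95% interval 1.43 to 1.62, adjusted p = 1.87e-17). The GH3 beta-glucosidase gene Mycth_66804 was 1.70-fold lower on starch (95% interval 1.55 to 1.88, adjusted p = 3.53e-14). None of these 3 passed the 2-fold test. On log2(RPKM + 1) values the log2 fold change of Mycth_111372 was 4.44 in place of 5.82, since the added 1 outweighs its level without carbon.

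The third comparison, glucose against no carbon, places the sugar of the preculture against starvation. The 2 endoglucanase genes were higher on glucose, with 44.8% of tested genes called higher, and the other 4 were lower, with 45.7% of tested genes called lower. Past 2-fold, 2 were higher (21.7% of all genes) and 3 lower (21.4% of all genes). Both signs were present among the 6 genes, as they were over all tested genes. The median log2 fold change was -0.82 over the 6, against -0.02 over all tested genes.

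The GH3 beta-glucosidase gene Mycth_66804 had the widest fall, 5.61-fold lower on glucose (95% interval 4.95 to 6.36, adjusted p = 2.02e-29). The GH6 cellobiohydrolase gene Mycth_66729 was 3.13-fold lower (95% interval 2.98 to 3.30, adjusted p = 4.76e-38), and the GH1 beta-glucosidase gene Mycth_115968 2.76-fold lower (95% interval 2.55 to 2.99, adjusted p = 2.42e-28). In the opposite direction, the GH5 endoglucanase gene Mycth_86753 was 4.25-fold higher on glucose (95% interval 4.02 to 4.49, adjusted p = 6.18e-41). Mycth_111372 was 4.44-fold higher (95% interval 3.20 to 6.15, adjusted p = 9.68e-12), from 39 reads without carbon and 160 on glucose. Counting error alone gave a wider 95% interval of the read ratio, from 3.12 to 6.50. On log2(RPKM + 1) values its log2 fold change of 2.15 became 1.04.

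The GH7 cellobiohydrolase gene Mycth_109566 differed little between these media. Its log2 fold change was -0.17 (SE 0.0496, 95% interval -0.27 to -0.07, adjusted p = 0.00175). Without glucose replicate 2 the value was -0.09 and the adjusted p 0.149, so this call depends on 1 library. Its size also depended on the scaling, with -0.42 under library totals alone, and without the trend of counts with gene length it was -0.41.

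The balance between genes of the same class can be read within a library, where scaling between libraries cancels. For the cellobiohydrolases, the ratio of the GH7 gene to the GH6 gene was 0.283 and 0.278 in starved mycelium, 0.818 and 0.753 on glucose, and 1.01 and 1.05 on starch. The GH6 transcript thus predominated in starved mycelium, and both stood at about the same level on starch. For the endoglucanases, the ratio of the GH5 gene to the GH7 gene was 48.8 and 55.8 without carbon, 49.6 and 48.9 with glucose, and 7.17 and 6.98 with starch. Here no carbon and glucose overlapped, and both starch libraries were far lower.

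The ratio of the GH1 to the GH3 beta-glucosidase gene was 1.92 and 1.93 without carbon, 4.11 and 3.76 with glucose, and 4.87 and 5.12 with starch, with no overlap between media. The GH1 transcript was the more abundant in every library. Between classes, the 4 cellulase genes together stood 2.81 and 2.84 times above the 2 beta-glucosidase genes without carbon, 11.5 and 10.5 times with glucose, and 9.19 and 9.92 times with starch. The ratio was lowest in both starved libraries. These ratios are given as a description, and differences in them between media were not tested.

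**Figure D3:**
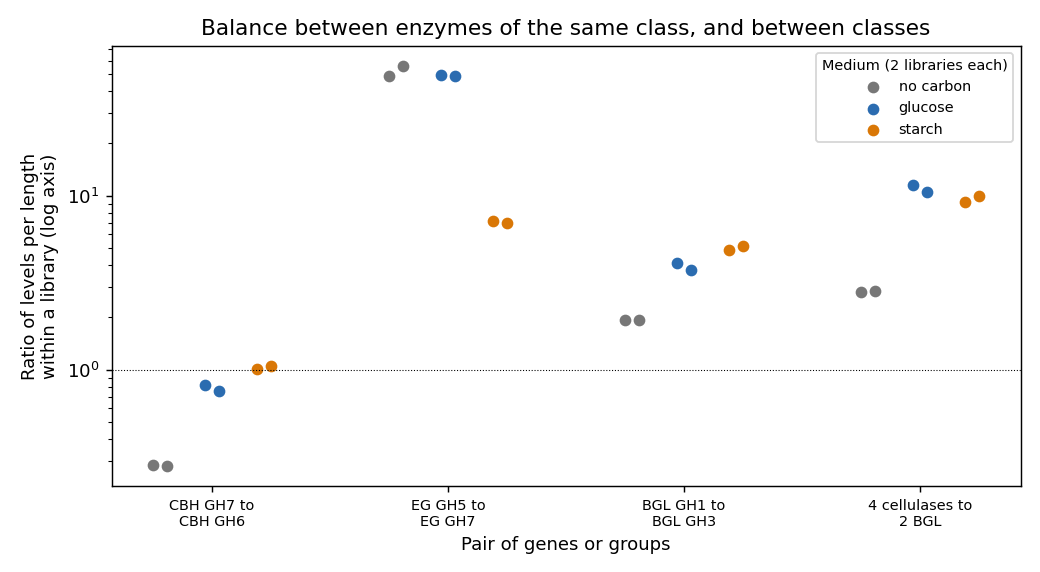
Ratio of levels per length within each library (log axis) for the pair of cellobiohydrolase genes (CBH), the pair of endoglucanase genes (EG), the pair of beta-glucosidase genes (BGL), and the 4 cellulase genes over the 2 beta-glucosidase genes. Points are libraries, and the dotted line marks equal levels. The endoglucanase ratio is 7.17 and 6.98 on starch and above 48 in the other media, and the cellobiohydrolase ratio is nearest to 1 on starch (1.01 and 1.05).

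Summed over the 6 genes, the level per length was 218.5 and 215.1 CPM per kilobase without carbon, 208.0 and 198.6 with glucose, and 718.5 and 721.3 with starch. The mean on starch was 3.54 times that on glucose and 3.32 times that without carbon. As a share of all reads, the 6 genes took 0.0447% and 0.0432% without carbon, 0.0310% and 0.0297% with glucose, and 0.132% and 0.133% with starch. Even on starch they were a small part of the messenger RNA.

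The sums without carbon and on glucose were closer to each other than to starch, also with the deposited RPKM (231.8 without carbon, 183.1 on glucose and 747.6 on starch), but their make-up differed. Without carbon the GH6 cellobiohydrolase gene made up 46.8% of the summed level and the beta-glucosidase genes 26.2% and 26.1% in the 2 libraries. On glucose the GH5 endoglucanase gene alone made up 61.9% and the beta-glucosidase genes 7.99% and 8.70%. On starch 3 genes were near each other, with 32.1% for the GH5 endoglucanase gene, 27.3% for the GH7 and 26.6% for the GH6 cellobiohydrolase gene. The summed level of the 4 cellulase genes was 186.3 ± 7.09 CPM per kilobase on glucose and 160.1 ± 1.49 without carbon (SD, n = 2), but with the deposited RPKM the order turned round, with 167.8 on glucose and 171.2 without carbon.

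**Figure D4:**
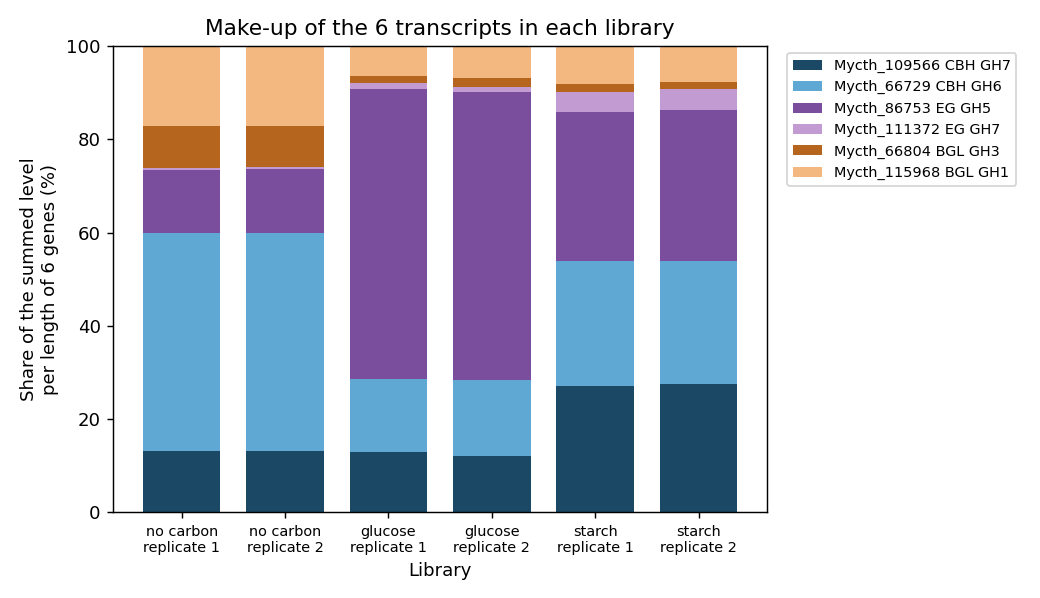
Share of each gene in the summed level per length of the 6 genes (%), 1 bar per library. The GH6 cellobiohydrolase gene takes the widest share without carbon (46.8%), the GH5 endoglucanase gene does so on glucose (61.9%), and on starch the GH5 gene and both cellobiohydrolase genes share most of the sum.

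The likeness of patterns was measured as the Euclidean distance between log2 CPM values of the 6 libraries, each gene centred on its own mean, so that a distance of 0 is the same pattern. Among the 15 pairs of the 6 genes, the nearest were the GH6 cellobiohydrolase gene Mycth_66729 and the GH1 beta-glucosidase gene Mycth_115968, at 0.50. Of 8717 other genes, Mycth_115968 ranked 8 by nearness to Mycth_66729, and Mycth_66729 ranked 13 by nearness to Mycth_115968. The cellobiohydrolase genes were 1.98 apart, the endoglucanase genes 3.19 and the beta-glucosidase genes 1.43. At that distance the GH5 endoglucanase gene Mycth_86753 still ranked 40 of 8717 by nearness to Mycth_111372. In the other direction Mycth_111372 ranked 4507 by nearness to Mycth_86753. The farthest pair was Mycth_111372 and Mycth_66804, at 6.65. Mycth_109566 and Mycth_66804 had the other gene of their class as the nearest of the 6, and the other 4 genes did not.

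Across the whole table, the 2 genes nearest in pattern were Mycth_2300079 and Mycth_68753 for Mycth_109566 (distances 0.25 and 0.47), Mycth_77476 and Mycth_112399 for Mycth_66729 (0.25 and 0.34), and Mycth_2295747 and Mycth_2301769 for Mycth_86753 (0.16 and 0.17). For Mycth_66804 they were Mycth_43941 and Mycth_2308143 (0.32 and 0.36), and for Mycth_115968 Mycth_2303045 and Mycth_76901 (0.13 and 0.21). None of these genes carries a symbol in the reference table. The pattern of the GH5 endoglucanase gene was a common one, with 302 genes within a distance of 1, against 138 for Mycth_66804, 57 for Mycth_115968, 29 for Mycth_66729 and 11 for Mycth_109566. No gene came within 1 of the GH7 endoglucanase gene Mycth_111372, whose nearest were Mycth_116384 at 1.36 and Mycth_39035 at 1.46. These distances describe 6 libraries in 3 media and say nothing of shared control.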

How the data were processed

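The authors deposited read counts and RPKM for each gene and library, with HTSeq 0.5.4p2 and TopHat2 2.0.8b listed in the submitters' processing notes. Settings, strand use, build and annotation were not given in the sources used here. Reads from a gene and from one overlapping or antisense to it may therefore be mixed in a count. Whether related genes share reads was not tested. The deposited RPKM followed from the counts with library totals and a gene length that came out whole (within 0.001 bases) for all 8989 genes with a read, and those lengths served for levels per length.

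Counts were fitted with edgeR 4.0.16 in R 4.3.3 (filterByExpr, TMM, 1 fit of 6 libraries without covariates, robust glmQLFit, glmQLFTest, glmTreat at a log2 fold change of 1), with Benjamini-Hochberg adjustment over 8718 tested genes and a threshold of 0.05. The fit had 3 residual degrees of freedom and a median prior of 42.5. Each standard error is the absolute log2 fold change over the square root of F. Counting intervals are exact 95% Clopper-Pearson intervals for counting error only. They are given for Mycth_111372, the only gene of the 6 with a library of at most 20 reads (16, no carbon replicate 2). For this gene the model intervals were narrower than the counting intervals in all 3 comparisons, so its standard errors understate the uncertainty. At these depths 3 reads are 0.127 to 0.169 CPM. Distances used a prior count of 2. The code was tested on simulated data for starch against glucose only, with 200 genes changed, far fewer than were called here.

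Gene IDs were matched to locus tags of the RefSeq assembly ASM22609v1 (9087 of 9110, and 6 of 6 members), used only for symbols and gene order. The genes named are the 6 members, the 2 nearest to each in pattern, and, where a result is given, the gene on either side. The members, rules and lists were chosen with earlier results of these data known. Alternatives used DESeq2 1.42.0, limma 3.58.1, other scalings and filters, a replicate block, removal of the length trend and each library left out. Protein lists and promoter motifs were not analysed here.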

Additional observations from a re-analysis of the deposited data

How the results depend on the processing

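Each of the 18 log2 fold changes of the 6 genes was recomputed under 20 alternatives. Of the 360 values, 354 kept their direction and side of the threshold, 6 lost the threshold and 0 changed sign. The 2-fold test accounted for 5 of the 6 losses, and leaving out glucose replicate 2 for the other, Mycth_109566 on glucose against no carbon (log2 fold change -0.09, adjusted p = 0.149). Where a library is left out, the remaining library of that medium is assumed to vary like the others. The counts of genes called higher or lower stayed within 1.5 times under the other alternatives, except that the 2-fold test gave 3 higher and 0 lower for starch against no carbon.

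Under scaling by library totals alone, the median of all genes shifted by 0.20 for starch against glucose and by -0.25 for glucose against no carbon, and the share of all tested genes called higher on starch than on glucose rose from 36.1% to 55.2%. All 6 genes remained higher on starch than on glucose. Removal of the gene length trend brought the log2 fold change of Mycth_115968 on starch against no carbon from 0.61 to 0.28, with an adjusted p of 9.07e-08. In the same comparison that of Mycth_66729 went from 0.92 to 0.67 and that of Mycth_66804 from -0.77 to -1.13. On glucose against no carbon the value of Mycth_66804 went from -2.49 to -2.84. The low counts of Mycth_111372 without carbon limit the precision of its differences.

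The replicate numbers do not pair the libraries by the labels, and the deviations of same-numbered libraries correlated at -0.04 to 0.01 between media. With the replicate number as a block, all 18 calls kept their side of the threshold, for example Mycth_109566 on glucose against no carbon at a log2 fold change of -0.17 (adjusted p = 0.00205).

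Deposited RPKM, which are not scaled by TMM factors, differed from the levels given by at most 1.11-fold. For Mycth_109566 the means were 30.4 without carbon, 22.9 on glucose and 204.2 on starch, for Mycth_66729 108.5, 29.2 and 198.9, and for Mycth_86753 31.6, 113.4 and 239.7. For Mycth_111372 they were 2.30 on glucose and 33.9 on starch, for Mycth_66804 20.7 without carbon and 3.10 on glucose, and for Mycth_115968 39.9 without carbon and 12.2 on glucose. The other 3 means lay within 1 SD.

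Of the 12 genes named as nearest in pattern, 1 was also among the 2 highest by Pearson correlation, so those names depend on the measure of likeness. The lists by protein signature and by similarity to the members, with their alternatives, were not run.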

Other observations

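The genes on either side of the 6 enzymes in the reference assembly were set beside them, in gene order only. Of 12 such neighbours, 9 passed the filter on low counts. On starch against glucose, where all 6 enzyme genes were higher, 4 of the 9 neighbours were higher, 2 were lower and 3 were not called (edgeR, adjusted p under 0.05), beside 36.1% of all tested genes called higher and 32.5% lower. The highest log2 fold change of a neighbour in that comparison was 0.75, for Mycth_2299497 beside the GH7 cellobiohydrolase gene Mycth_109566, which itself had 2.95. Beside the GH5 endoglucanase gene Mycth_86753, with a log2 fold change of 0.88, Mycth_2122637 was lower on starch, at -1.38.

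On glucose against no carbon, 3 of the 9 neighbours were higher and 6 lower, beside 44.8% of all tested genes called higher and 45.7% lower. Mycth_2122637 was among those higher, with a log2 fold change of 2.23 beside 2.09 for Mycth_86753, while the gene on the other side, Mycth_2295555, had -3.29. Mycth_5082, next to the GH1 beta-glucosidase gene Mycth_115968, went the other way from it in both comparisons with glucose, with a log2 fold change of 2.05 on glucose against no carbon (-1.46 for Mycth_115968) and -1.80 on starch against glucose (2.07 for Mycth_115968). Its mean level was 14.4 CPM without carbon, 60.0 CPM on glucose and 17.2 CPM on starch.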
